A study of Mus musculus with 14 samples.

Results

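Of the 2352 regions that RXRα occupied in mouse gastruloids, 475 were covered by no RXRα peak in the mouse embryonic stem cells (mESCs) that gastruloids are grown from. These gastruloid-only regions were selected on the peak lists alone. Peaks touching a peak of either input library were first removed from every list, the mESC lists included. The remaining peaks of both gastruloid libraries were merged and kept where both had one. Regions touching a remaining peak of either mESC library were set aside. Presence and absence in the RXRα lists therefore chose the members and is not a finding about them. Of the other regions, 1574 were also covered in both mESC libraries, and 303 in 1 of them.

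Cells of an E14 mouse embryonic stem cell reporter line were compared with gastruloids at 120 h, which are aggregates started from 300 cells each and given 3 µM CHIR99021, an activator of Wnt signalling, after 48 h. In the RXRα line the receptor carries an HA tag and an FKBP12F36V degron at its own gene, in mESCs and gastruloids alike, and HA antibody was used for chromatin immunoprecipitation with sequencing. Sp5 and Zeb2 carry the same kind of tag in their own lines and were profiled in gastruloids, while p300 carries V5 and miniTurboID and was profiled at both stages. Each of these 6 groups had 2 libraries, and each stage had 1 input, both from the p300 line. The mESCs were grown with serum and leukemia inhibitory factor, and the labels name no degrader for any library. The labels name 1 tagged line per protein and do not say whether it is a single clone or whether the libraries of a group came from separate cultures, and no untagged HA control was analysed here. Since whole gastruloids were used, more cells with a bound site and more binding per cell cannot be told apart.

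RXRα is a nuclear receptor that works as a dimer, most often with a retinoic acid receptor, but also with thyroid, vitamin D, LXR, PPAR and FXR receptors. Such dimers bind repeats of a short half-site, and the spacing between half-sites helps set which dimer binds. In the embryo, retinoic acid is made by dehydrogenases, carried by CRABP proteins and cleared by CYP26 enzymes, and it acts on Hox genes and on the posterior neural tube, somites, heart and gut. p300 is an acetyltransferase that marks active enhancers and promoters, Sp5 is a transcriptional target of the Wnt pathway that binds GC-rich boxes, and Zeb2 is a repressor that binds E-boxes.

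The sequence of a member can be read where its summit falls in a promoter window of the RefSeq table (build GRCm38.p6), which runs from 250 bases before a transcription start to 50 bases after it. This was so for 27 members in 32 windows. The half-site was searched on both strands in the form AGGTCA, in another form written GGGTCA, in one that reads AGTTCA, and in the form found in many response elements, GGTTCA. Each was searched alone and in pairs of any forms with 0 to 8 bases between them. None of the 32 windows held a direct repeat (2 half-sites in the same orientation), against 20 of the 311 windows with the summit of a region also present in both mESC libraries (6.43%) and 1.12% of all 32851 windows. At shares this low, 32 windows are too few to tell the members from either group. The windows also cover promoters alone, while 83 of the 475 members lay within 1 kb of a gene start. A half-site alone was in 14 of the 32 (43.8%), against 66.2% of the 311 and 43.7% of all windows. The box GGGCGG, bound by Sp and Klf factors, was in 65.6% of the member windows, 74.6% of the 311 and 35.7% of all. A match describes letters and is not a site, and windows of neighbouring starts overlap.

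The 250 bases before the start are shown for 3 members and 1 promoter occupied at both stages, with half-sites in capitals. They were picked after their values were seen, to set a retinoid gene without a half-site and the member promoters with most half-sites beside a promoter with a known retinoic acid response element.
Stra6: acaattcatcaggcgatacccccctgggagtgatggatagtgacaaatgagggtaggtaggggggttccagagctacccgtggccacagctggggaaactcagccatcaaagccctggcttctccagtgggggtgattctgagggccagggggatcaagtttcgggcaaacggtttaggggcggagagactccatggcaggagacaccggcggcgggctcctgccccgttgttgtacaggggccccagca
Gpx4: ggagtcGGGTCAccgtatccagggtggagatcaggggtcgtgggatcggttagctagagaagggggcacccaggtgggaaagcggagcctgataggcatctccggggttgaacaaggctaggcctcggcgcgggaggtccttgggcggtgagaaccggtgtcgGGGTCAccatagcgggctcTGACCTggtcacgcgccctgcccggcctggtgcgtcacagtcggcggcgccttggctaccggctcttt
Mospd3: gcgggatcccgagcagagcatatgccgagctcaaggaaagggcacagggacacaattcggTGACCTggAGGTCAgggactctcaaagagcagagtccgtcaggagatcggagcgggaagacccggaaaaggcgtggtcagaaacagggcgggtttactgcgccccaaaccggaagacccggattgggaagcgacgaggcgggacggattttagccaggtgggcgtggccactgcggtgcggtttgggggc
Rarb: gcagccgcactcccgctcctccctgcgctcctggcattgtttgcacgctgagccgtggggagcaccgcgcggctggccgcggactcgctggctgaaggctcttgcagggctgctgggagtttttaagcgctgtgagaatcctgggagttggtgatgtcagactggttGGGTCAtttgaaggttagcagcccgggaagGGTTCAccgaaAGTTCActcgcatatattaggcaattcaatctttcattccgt
The Stra6 stretch is chr9:58129099-58129348 on the plus strand, from the gene of the cell-surface receptor for retinol-binding protein. RXRα had folds of 9.87 and 5.31 there in the 2 gastruloid libraries, with the summit 173 bases before this start and 88 bp from another Stra6 start, and no half-site stands in the stretch. The Gpx4 stretch is chr10:80053761-80054010 on the plus strand, from the gene of a glutathione peroxidase that reduces lipid peroxides, and its 3 half-sites form no repeat of the kinds searched. RXRα folds at Gpx4 were 9.67 and 4.58. The Mospd3 stretch is chr5:137600709-137600958 on the minus strand, and its 2 half-sites point away from each other with 2 bases between them. This everted repeat was in 1 of the 32 member windows and 0.0548% of all windows, and an everted repeat of any spacing searched in 1 and 0.374%. As repeats of many kinds and spacings were searched, 1 match in 32 windows singles out none of them. RXRα folds at Mospd3 were 5.39 and 3.77. The Rarb stretch is chr14:16575477-16575726 on the minus strand, from the gene of retinoic acid receptor beta, and belongs to a region that is no member. It begins 53 bases before the start a direct repeat with 5 bases between its half-sites, which 0.0974% of all windows hold, and RXRα folds there were 28.7 and 17.4 in gastruloids and 19.5 and 16.4 in mESCs.

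The members had higher folds in gastruloid library 1 than in library 2, and so, by their medians, had regions present at both stages. The authors' fold enrichment at the summit, a ratio of signal to local background, had a median of 9.86 (range 2.08 to 40.8) in library 1 and 5.21 (2.35 to 24.1) in library 2, and 417 of 475 members were higher in library 1. The summits held a median of 40 and 14 fragments, so a member near the lower end of library 2, at 7 fragments, rests on few reads. Members were weaker and narrower than regions present at both stages. Those had median folds of 12.6 and 5.66, median fragments of 62 and 17, and a median width of 541 bp, against 388 bp at members. The lists themselves were uneven: library 1 held 29867 peaks and library 2 held 3111 after removal of input peaks, so that 7.89% of the library 1 peaks were met in library 2. The mESC lists held 49661 and 28112 peaks. Between the gastruloid libraries the summits of a member lay a median of 34 bp apart, and 298 of 475 lay within 50 bp.

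**Figure D1:**
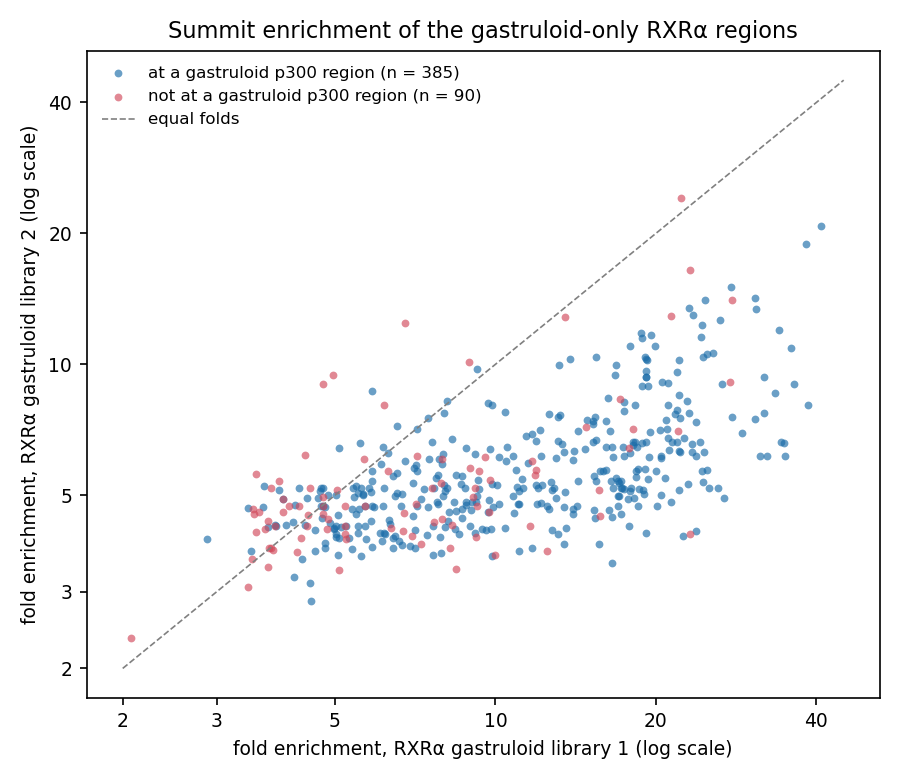
Authors' fold enrichment at the summit of each of the 475 gastruloid-only RXRα regions in gastruloid library 1 (horizontal, log scale) and library 2 (vertical, log scale), coloured by whether a gastruloid p300 region overlapped. Most points (417 of 475) lie under the dashed line of equal folds, and the 90 members without p300 lie among the weak ones and also among those with the highest folds in library 2.

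The number of members moved most when either RXRα gastruloid library was left out. It was 1141 without gastruloid library 1 and 15672 without library 2, since each remaining peak then counts as a region, and 740 without mESC library 1 against 513 without mESC library 2. At the border of the rule, the 3 members with the smallest values of the larger of their 2 −log10 q were near Brip1 (folds 3.49 and 3.57), Foxb2 (3.80 and 3.79) and Cnst (3.74 and 4.37). Just outside lay regions near Lrp2 (4.53 and 4.35 in gastruloids) and Tmpo (4.02 and 4.97), with folds of 2.53 and 2.80 in mESC library 1, and near Sco1 (4.75 and 3.85), with 2.61 in mESC library 2. Members and non-members at this border therefore had like folds in gastruloids. Across the 303 regions found in 1 mESC library, the median mESC fold was 4.20.

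Most members lay far from gene starts. Of the 475, 83 (17.5%) had their summit within 1 kb of a start of a protein-coding gene, 164 lay elsewhere inside a gene and 228 between genes. Across all 2352 gastruloid regions 41.9% were at starts. Among regions present at both stages 769 of 1574 (48.9%) were, so the members' share was lower by 31.4 percentage points (odds ratio 0.222, 95% interval from 0.171 to 0.286, adjusted p = 2.76e-36 by a two-sided Fisher's exact test). The median distance to the nearest start was 30042 bp for members and 1170 bp for regions present at both stages. The 303 regions found in 1 mESC library had 43.9% at starts. This contrast depended on list length: when the 4 RXRα lists were cut to the length of the shortest, 34.5% of 908 members and 38.3% of regions present at both stages were at starts (adjusted p = 0.497, Fisher's exact test). Without gastruloid library 2 the difference was 18.2 points. Regions are units of counting here and not replicates of a condition, and with 2 libraries a stage an exact test over libraries cannot fall below p = 0.333.

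**Figure D2:**
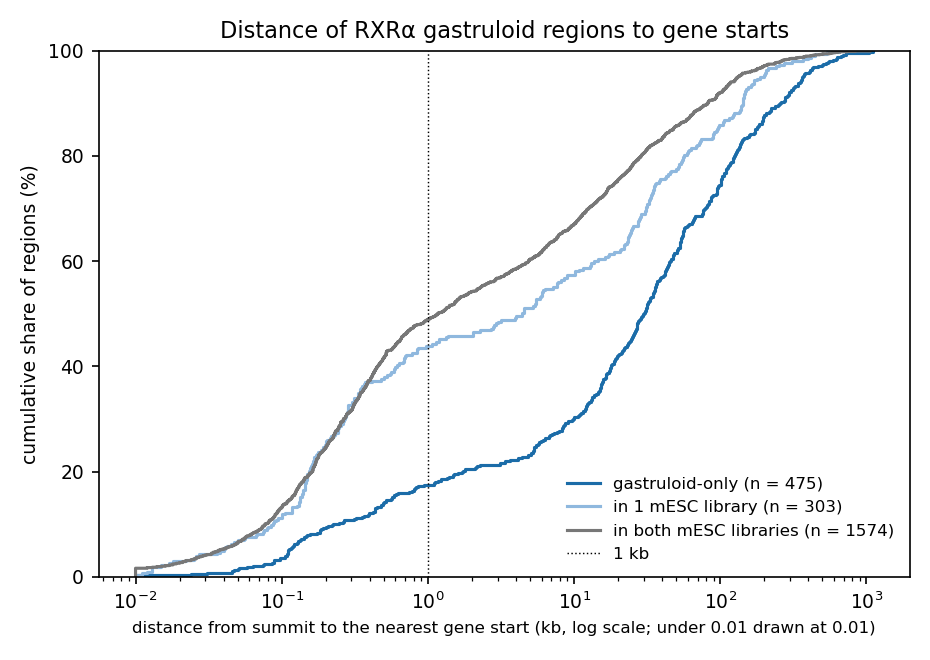
Cumulative share of RXRα gastruloid regions (vertical, percent) by distance from the summit to the nearest start of a protein-coding gene (horizontal, kb, log scale). At the dotted line of 1 kb the curve of the 475 gastruloid-only regions stands at 17.5%, against 43.9% for regions found in 1 mESC library and 48.9% for those found in both.

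At most members p300 was present in gastruloids and absent in mESCs. A gastruloid p300 region overlapped 385 of 475 members (81.1%), against 85.8% of all gastruloid RXRα regions, and the single p300 libraries overlapped 83.6% and 85.1%. An mESC p300 region overlapped 9 members (1.89%), against 24.4% of all gastruloid RXRα regions, and the single mESC libraries overlapped 5.47% and 2.53%. Regions present at both stages had gastruloid p300 at 87.6% and mESC p300 at 33.0%. The mESC difference was 31.1 points (odds ratio 0.0391, 95% interval from 0.0201 to 0.0763, p = 7.15e-56 by the same exact test, adjusted like the others over a family of 5), and it kept its direction and passed the threshold in all 13 alternatives tried. The rule itself leans towards this difference, as it chose both groups by mESC RXRα. Of mESC-only RXRα regions, 50.9% overlapped mESC p300. The exact test is therefore no independent support, and regions are not replicates. The members' share itself depended on list length. With RXRα lists of equal length it was 16.6% of 908 members, against 56.3% of regions present at both stages. Without RXRα mESC library 1 it was 6.89% of 740, against 32.5%.

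The gastruloid p300 difference was small and did not hold in 4 alternatives. Members were lower by 6.56 points (odds ratio 0.605, 95% interval from 0.460 to 0.796, adjusted p = 0.000598, Fisher's exact test). Away from gene starts the shares were 81.6% of 392 members and 80.5% of 805 regions present at both stages, and at starts they were 78.3% of 83 and 95.1% of 769. With RXRα folds of at least 5 in both gastruloid libraries the shares were 88.5% and 88.7%. Single RXRα libraries moved the difference too: it was 43.5 points without gastruloid library 1, 20.1 points without gastruloid library 2 and 4.06 points without mESC library 1, always with members lower.

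Where p300 had a peak at a member, that peak was high. The p300 fold at members had a median of 9.88 in library 1 and 11.4 in library 2, against 6.36 and 7.10 at regions present at both stages. Away from gene starts the medians were 11.4 and 13.03 at members against 7.79 and 9.04, and at starts 5.10 and 5.13 against 5.99 and 6.53. The higher p300 folds of members were thus at sites away from starts, a description with no test. The RXRα and p300 summits of a member lay a median of 46 and 45 bp apart in the 2 p300 libraries, against 81 and 77.5 bp at regions present at both stages.

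Members at gastruloid p300 also had mESC p300 less often than other gastruloid p300 regions without mESC RXRα. Among the 385 members at gastruloid p300, 6 (1.56%) also had mESC p300. Of the 33583 other gastruloid p300 regions that no mESC RXRα peak overlapped, 3361 (10.01%) did (odds ratio 0.142, 95% interval from 0.0635 to 0.319, p = 4.74e-11 by a two-sided Fisher's exact test, a comparison chosen after the data were seen). The 9 members with mESC p300 included sites near Flrt3, which encodes a cell adhesion protein (p300 folds of 7.91 and 6.22 in mESCs and 22.5 and 26.95 in gastruloids), and near Mapk10, a stress kinase gene (15.3 and 13.1 in mESCs and 8.40 and 7.94 in gastruloids). Mapk10 was chosen after its values were seen, as was Flrt3.

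Sp5 and Zeb2 regions overlapped members less often than regions present at both stages. Sp5 regions overlapped 115 members (24.2%), against 44.4% of all gastruloid RXRα regions and 51.0% of regions present at both stages (difference 26.7 points, odds ratio 0.307, adjusted p = 1.59e-25, Fisher's exact test). The 2 Sp5 libraries gave 39.4% and 24.8%. Zeb2 regions overlapped 172 members (36.2%), against 42.4% of all and 44.5% of regions present at both stages (difference 8.33 points, odds ratio 0.707, adjusted p = 0.00148, Fisher's exact test), and the single Zeb2 libraries gave 69.5% and 36.6%, far apart. Away from starts the Sp5 shares were 15.8% and 27.5%, while the Zeb2 shares were 33.9% and 33.7%, so the Zeb2 difference was not seen there. The Zeb2 difference was 24.1 points without RXRα gastruloid library 1, 15.6 without library 2, 12.4 without Zeb2 library 2 and 5.17 without Zeb2 library 1. All 3 of p300, Sp5 and Zeb2 had a region at 65 members, p300 alone at 191, and none of them at 66. With RXRα lists of equal length neither the Sp5 difference (42.3% against 44.7%) nor the Zeb2 difference (41.2% against 43.1%) passed the threshold (adjusted p = 0.533 for each, Fisher's exact test).

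**Figure D3:**
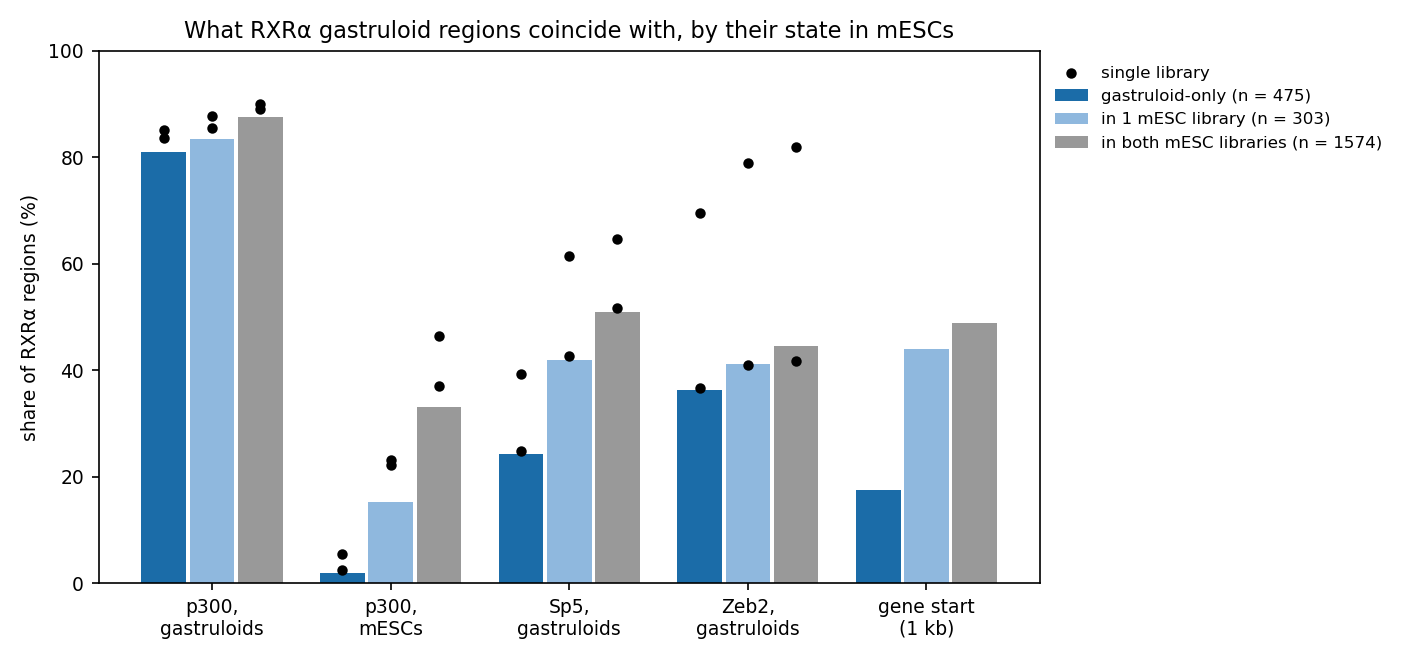
Share of RXRα gastruloid regions (vertical, percent) that overlapped a region of each other list or had a summit within 1 kb of a gene start, by whether RXRα was listed in mESCs. Bars give regions present in both libraries of the other factor, merged over both, and points give its single libraries. At mESC p300 the bars read 1.89% for gastruloid-only regions, 15.2% for regions in 1 mESC library and 33.0% for regions in both.

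Each member was assigned to the protein-coding gene with the nearest end within 100 kb, which placed 376 members at 361 of 21887 genes (1.65%). The nearest gene need not be the one that a region acts on. Of 17 gene lists with 285 genes, 30 genes had a member, 37 members in all, and 32 of these 37 lay in a gastruloid p300 region and 1 in an mESC p300 region. One of the 37 was at a gene start. Members counted per list are set beside the 1.65% of all genes, and no list was tested, since the lists were chosen with results of these data known. Regions present at both stages were assigned to 1389 of the 21887 genes.

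Among genes that make and carry retinoic acid, 2 of 18 had a member, and 4 had a region present at both stages. Crabp2, a carrier of retinoic acid inside cells, had 2 members 4869 and 5788 bp from its nearest end, with RXRα folds of 17.8 and 4.90 at the nearer and 11.8 and 5.55 at the farther. p300 was at the nearer in both gastruloid libraries (12.2 and 14.2) and at the farther in library 2 alone (3.52). Dhrs3, a retinaldehyde reductase that limits retinoic acid, had 1 member 21499 bp away within the neighbouring gene Vps13d, with RXRα folds of 19.2 and 9.63 and p300 folds of 21.7 and 25.7.

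Each of the 3 genes for retinoic acid degradation had a member within 100 kb, though for 1 of them alone it was the nearest gene. The share of all genes with a member within 100 kb, nearest or not, was not computed. By the nearest gene, 2 of the 3 had a region present at both stages. The member 38506 bp from Cyp26a1 and 46722 bp from its neighbour Cyp26c1 had RXRα folds of 7.74 and 5.47 and p300 folds of 18.5 and 19.98. Cyp26b1 had a member 36598 bp away (17.2 and 4.52), nearer to Exoc6b. Counted in this way, 5 of 18 synthesis and carrier genes had a member: Stra6 and Rbp4, which encodes the plasma carrier of retinol, and Lrat, which esterifies retinol, joined the list. By the nearest gene end their members went to Ccdc33, Ffar4 and Fgg, although the Stra6 member lies inside Stra6 at a start of it. These genes, like Cyp26b1 and Cyp26c1, were named after their values were seen. The Rbp4 member lay 24869 bp from the gene (RXRα 9.83 and 4.19, p300 17.4 and 23.2) and the Lrat member 66685 bp from it (4.42 and 4.26, no p300 peak).

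None of the 6 genes for retinoic acid and retinoid X receptors and none of 12 receptor coregulator genes had a member as nearest gene, and none of 20 targets of LXR and PPAR did. Of 22 other partner receptors 1 had: Nr1h4, the bile acid receptor FXR, with a member inside the gene (19.04 and 5.76; p300 15.4 and 18.4). Over all genes 1.65% had a member, and lists of 6, 12 or 20 genes can hold none at that share. The receptor genes did have other RXRα regions. Of the 6, 2 were the nearest gene of a region present at both stages and 4 that of an mESC-only region. For the 12 coregulator genes these counts were 4 and 8, and for the 20 LXR and PPAR targets 8 and 13. Over all 21887 genes they were 1389 and 7830. The nearest end does not give the Rarb promoter region shown above to Rarb, so these counts are of assigned regions alone.

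Of 19 genes known to respond to retinoic acid, 6 had 10 members between them, and 4 had 6 regions present at both stages. Meis1, a homeobox cofactor of Hox proteins, had 4 members, the most of any gene, all inside the gene. Their RXRα folds were 23.1 and 13.5 at the strongest, and 20.3 and 7.06, 10.1 and 4.78, and 7.98 and 6.22 at the others. These lay 55112 to 133136 bp from the Meis1 start. p300 had gastruloid peaks at all 4 and mESC peaks at none, and its folds were highest (17.7 and 19.2) at the member where RXRα was weakest in library 1.

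**Figure D4:**
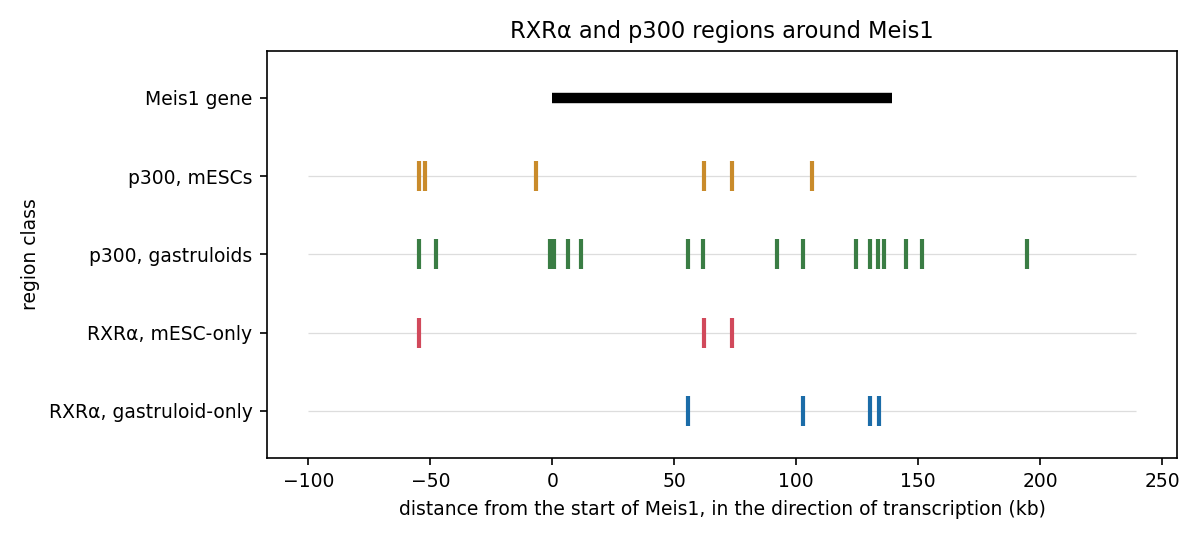
Positions of RXRα and p300 regions from 100 kb before Meis1 to 100 kb past its end (horizontal, kb from the start, in the direction of transcription), 1 row per class of region. The 4 gastruloid-only RXRα regions stand within the gene, each at 1 of the 17 gastruloid p300 regions, and the 3 mESC-only RXRα regions stand at other positions.

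Pbx3, another homeobox cofactor, had 2 members side by side, 83320 and 84303 bp from its start (13.2 and 9.94 at one, 8.75 and 5.21 at the other). Lhx1 had 1 with near equal folds (9.22 and 9.75), and Zfp503 (8.81 and 6.44) and Zfp703 (17.9 and 5.11), a pair of related zinc-finger genes, had 1 each. Sp5 was high at both of these last (23.5 and 19.9 at Zfp503, 33.8 and 21.7 at Zfp703). The Tshz1 member had folds of 12.2 and 5.29.

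Members lay at the 3′ part of the Hox clusters, the part with the genes expressed earliest and most anteriorly. Of 39 Hox genes 7 had a member, 1 each: Hoxa3, Hoxa4, Hoxb1, Hoxb3, Hoxc4, Hoxd3 and Hoxd4. The highest folds were at chr2:74741320-74741810 inside Hoxd3 (25.6 and 10.6) and at chr11:96340834-96341323 inside Hoxb3 (21.03 and 9.08). p300 was low at these (4.70 and 6.72; 4.51 and 5.99) and was not listed at the Hoxd4 member (RXRα 15.7 and 4.49). The Hoxa4 member was the other way round, with RXRα at 8.06 and 5.11 and p300 at 19.5 and 21.7. The Hoxb1 member lay 4547 bp from the gene (7.95 and 4.405) and the Hoxc4 member 28924 bp (12.97 and 6.08). The Hoxa3 member had the third lowest rank of all members by its smaller fold (2.88 and 3.96), yet 65 and 23 fragments, since the local background there was high. RXRα regions present at both stages were assigned to 11 Hox genes and mESC-only regions to 6.

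Neural tube genes with members were Irx3, Pax6, Pax7 and Sox1, 4 of 24, with 6 members. Regions present at both stages, 5 in number, were assigned to Lmx1a, Mnx1, Neurog2 and Sox2, also 4 of 24. Pax6, a homeobox gene of the ventral and middle neural tube, had its member 92885 bp away inside Elp4, with RXRα folds of 36.3 and 8.99 and p300 at 16.8 and 18.04. Pax7, a dorsal neural tube and muscle gene, had 2 members inside it (21.9 and 7.86; 22.4 and 4.02). Irx3 had 2 members 17374 and 74751 bp away (19.3 and 8.91; 20.9 and 7.44), and Sox1, a marker of neural progenitors, had 1 (22.0 and 7.04) with p300 in library 2 alone (5.13). All 6 had folds above 19 in library 1.

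Endoderm and notochord genes had members at 3 of 17: Cxcr4 (17.3 and 6.47), Foxa2 (5.80 and 5.21) and Hnf4a (8.98 and 4.63). Foxa2, a pioneer factor of endoderm and notochord, had its member 74061 bp away. Of the 37 members at list genes, it was the 1 with an mESC p300 region (8.98 and 6.26, against 15.8 and 19.2 in gastruloids). Tail bud and streak genes had 3 of 21: Evx1 (11.7 and 3.78), Lhx1 and Nodal (7.52 and 6.05), the last inside the gene. Foxc1, a paraxial mesoderm gene, was the 1 of 20 somite genes with a member (6.11 and 5.90). For regions present at both stages the counts were 0 of 17 endoderm, 2 of 21 tail bud and 1 of 20 somite genes. Outside the naming rule, Tbx5 (9.70 and 8.14) and Wt1 (14.9 and 7.46) of the 20 cardiac genes and Snai1 (17.1 and 8.31; no p300 peak) of 12 neural crest genes had 1 each.

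Of 20 pluripotency genes, 12 trophoblast genes and 15 adult tissue genes, none had a member. Over all genes 1.65% had one, and lists this short can hold none at that share. Regions present at both stages were assigned to 4 pluripotency genes, 1 trophoblast gene and no adult tissue gene, and to 1389 of all 21887 genes. The mESC-only RXRα regions were far more numerous, at 15975. They were assigned to all 20 pluripotency genes (88 regions), 9 trophoblast genes and 2 adult tissue genes, and to 7830 of all 21887 genes. Among the 19 genes that respond to retinoic acid, 12 had an mESC-only region.

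**Figure D5:**
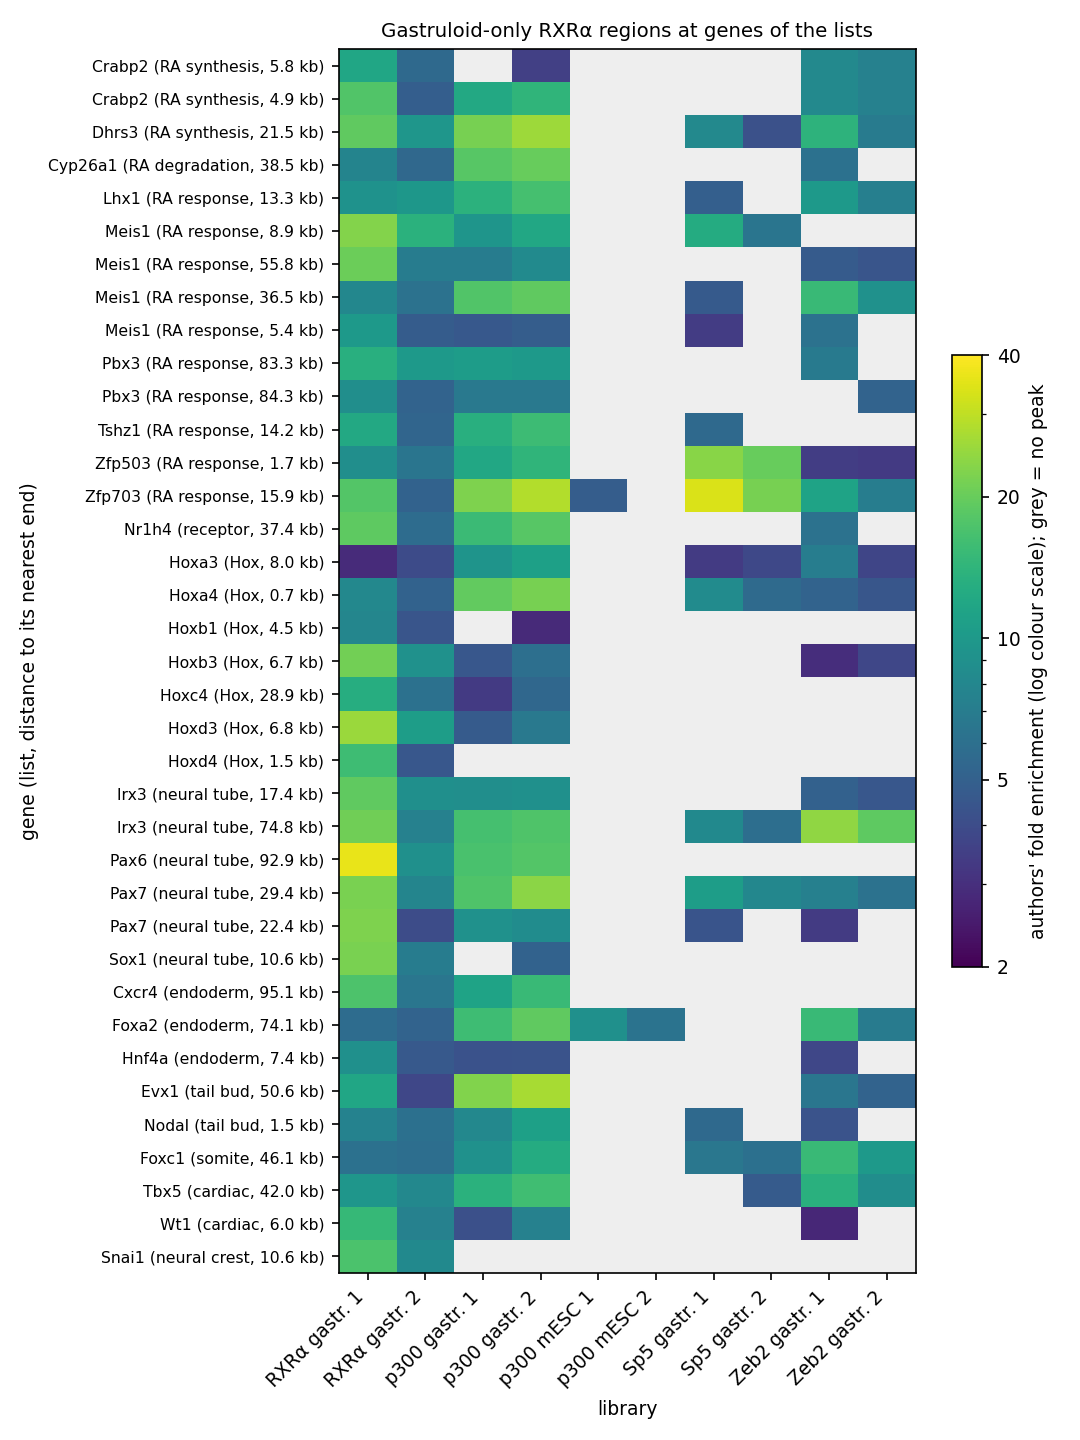
Authors' fold enrichment (log colour scale, grey where no peak was listed) at the 37 gastruloid-only RXRα regions assigned to genes of the lists, 1 row per region with its list and its distance from the nearest end of the gene, and 1 column per library. The gastruloid p300 columns are filled for 32 rows in both libraries, while the mESC p300 columns hold values for Foxa2 in both libraries and Zfp703 in library 1.

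The strongest members were mostly not at genes of the lists. Ranked by the smaller of the 2 folds, the first 15 were led by a site 10220 bp from Myl12b at chr17:70963666-70963894 (22.3 and 24.1), one 98329 bp from Ccdc85a at chr11:28685364-28685797 (40.8 and 20.8) and one inside Psd3 with no gene end within 100 kb (38.2 and 18.9). Next came Cd209a (23.1 and 16.5), Dap3 (27.7 and 15.1, inside Ash1l), a site on chromosome 12 with no gene near (30.7 and 14.2) and F11r (24.7 and 14.1). The other 8 were at Ankrd28 (27.8 and 14.1), Meis1, Metrn (30.9 and 13.4), Foxb1 (23.5 and 12.97), Rimbp3 (21.3 and 12.9), Btbd16 (13.5 and 12.8), Lyl1 (26.4 and 12.6, inside Nfix) and Lin7a (24.4 and 12.3). Meis1 was the 1 list gene among them.

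These 15 differed among themselves in p300. At 10 of them p300 had peaks in both gastruloid libraries, from 9.11 at Lin7a to 30.9 at the chromosome 12 site. At the other 5 (Myl12b, Cd209a, Ankrd28, Rimbp3 and Btbd16) no gastruloid p300 peak was listed. Other libraries made with HA antibody listed sites of both kinds. Among those without p300, Zeb2 had folds of 15.1 and 18.7 at Myl12b, 27.5 and 21.8 at Rimbp3 and 18.1 and 18.2 at Btbd16. Sp5 had folds of 15.8, 13.2 and 9.56 there in library 1. At Cd209a and Ankrd28 Zeb2 was listed in library 2 alone (13.8 and 11.1). Among the sites with p300, Zeb2 had folds of 19.7 and 8.84 at Dap3. Sp5 had folds of 12.7 and 6.44 at the Meis1 site, where Zeb2 was not listed, and neither was listed at Lin7a. Zeb2 library 1 overlapped 69.5% of all 475 members. A listing in these libraries was thus not particular to the sites without p300. Whether the tag or antibody has a part in the sites without p300 was not tested.

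Besides Meis1, genes with more than 1 member included Crabp2, Pbx3, Pax7, Irx3, Chic2, Etv4, Itln1, Met, Skap1, Wls and Zfp608, with 2 each. Etv4, a target of FGF signalling, had folds of 21.7 and 7.69 at one member and 7.43 and 4.05 at the other. Skap1 lies beside the Hoxb cluster, and its members had 8.98 and 5.76, and 12.8 and 5.14. Met, a growth factor receptor gene, had members on both sides (19.4 and 6.14; 12.1 and 7.07), and Wls, which is needed for Wnt secretion, had 7.60 and 6.63, and 7.13 and 4.73. Within 20 kb, 29 of 475 members had another member, 43 had a region present at both stages and 158 had an mESC-only RXRα region. These classes hold 475, 1574 and 15975 regions, and the same counts were not made for other regions.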

How the data were processed

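In all, 12 immunoprecipitation libraries and 2 inputs were analysed from the authors' deposited peak lists, 1 per library. Per the submitters' processing notes, the tools were fastp 0.20.1, BWA 2.2.1 and MACS2 2.2.7 and the build GRCm38.p6. Their roles, and whether an input served as control, are not given in the sources used here. The deposited values per peak were a score, a fold enrichment at the summit (a ratio), −log10 of both p and q, and the summit's position. Sequencing depth is not given. Fragments at summits were computed back from the fold and p of each peak, and came out whole within 0.01 in −log10 p for 463 of 475 members in library 1 and all 475 in library 2.

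Peaks touching an input peak were removed. A region was the merged span of peaks overlapping by at least 1 bp in both libraries of a group. Gene starts came from the RefSeq promoter table, and where it had none either end of the gene was used. Named regions were the 15 with the largest smaller fold, those nearest to a gene of the retinoid, receptor, coregulator, Hox, neural tube, endoderm, tail bud, somite and pluripotency lists, genes with at least 2, and 3 on each side of the rule's border. One gene of the lists is not reported here. The members and lists were chosen with earlier results of these data known. Shares were compared by Fisher's exact test, two-sided, with Benjamini-Hochberg adjustment over 5 tests and a threshold of 0.05 (Python 3.11.15, scipy 1.17.1), and the class calls were tested on simulated lists. A planned search for repeats at all summits was not run, since no genome was used here.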

Additional observations from a re-analysis of the deposited data

How the results depend on the processing

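With −log10 q of at least 5 in the 4 RXRα lists there were 274 members, with lists of equal length 908, and with folds of at least 5 in both gastruloid libraries, a setting chosen after seeing the data, 261. Leaving out 1 RXRα library gave 513 to 15672 members (740 without mESC library 1 and 1141 without gastruloid library 1). The replicate block, in which the class had to hold within each same-numbered pair, gave 482 and changed no call. Members minus regions present at both stages, in percentage points, reversed for gastruloid p300 at −log10 q of at least 5 (0.88, adjusted p = 0.743), with equal lists (1.52, adjusted p = 0.533) and away from gene starts (1.14, adjusted p = 1), and came to -0.24 with folds of at least 5 (adjusted p = 0.913), all by Fisher's exact test. For Zeb2 it reversed away from gene starts (0.26, chosen after seeing the data) and no longer passed at −log10 q of at least 5 (-5.10) or with equal lists (-1.94). With equal lists the Sp5 difference (-2.45) and that at gene starts (-3.80) did not pass either. In these alternatives the cause was not tested. The mESC p300 difference, which the rule itself leans towards, ran from -41.0 to -25.6 and passed in every alternative. Leaving out 1 library changed no call. With a median of 14 fragments at a member's summit in gastruloid library 2, weaker sites may be missed. The test of direct repeats at all summits and its alternatives were not run.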

Other observations

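Of the 90 members without a gastruloid p300 region, 58 had no p300 peak in either gastruloid library. Their median RXRα folds were 5.69 and 4.72, against 11.7 and 5.27 at members with a p300 region. Of the 58, 32 (55.2%) were in at least 1 of the 4 Sp5 and Zeb2 lists, 11 in at least 3 of them, and 26 in none. This was not a high share, since Zeb2 library 1 alone overlapped 69.5% of all 475 members. Chromosome X held 1 of 475 members, 0.953% of regions present at both stages and 2.48% of gastruloid p300 regions.

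Several patterning genes had a member within 100 kb that was nearer to another gene, and these were picked after their values were seen. Wnt5a, a ligand of the tail bud, had one 53699 bp away (RXRα folds of 31.9 and 7.73, p300 folds of 11.7 and 17.9), nearer to Erc2. Dbx1, a neural tube homeobox gene, had one 68027 bp away (16.1 and 7.42, p300 26.5 and 28.7), nearer to Htatip2. Gbx2, of the hindbrain border, had one 28133 bp away (8.37 and 4.84, p300 17.9 and 22.5), nearer to Agap1. Counting every member within 100 kb of a gene or inside it, 69 of the 285 list genes had one, in place of 30. The share of all genes with a member by this looser count was not computed. Neighbouring genes share members in it, and many of the 69 are Hox genes that repeat the same few regions.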
